A study of Bos taurus with 18 samples.

Results

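Pituitary gene expression was compared between Angus cows that had calved for the first time, at 30 months of age, and calves at weaning, at 6 months. Of 18 poly(A) RNA libraries in the study, 6 belong to this comparison, 3 from each age and each from a different animal. A gene model was counted as a member when its counts per 1000000 counted reads (CPM) did not overlap between the ages, that is, when all 3 libraries of one age lay above all 3 of the other. Of 27376 gene models in the deposited table, 17951 passed the expression filter, and 2682 of these were members. Non-overlapping CPM was higher at 30 months in 1344 models, 7.49% of those tested, and lower in 1338, 7.45%.

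Animals of both ages were healthy females, similar in body weight and condition within an age, and none was in heat when slaughtered. The 30-month animals had completed a first calving. Whether they were lactating or pregnant is not given in the sources used here, and age, growth and calving cannot be told apart. The study also holds 18-month animals that had reached sexual maturity, and the upper hypothalamus of the same cows. Because the RNA came from whole tissue, fewer cells of a type and less RNA per cell cannot be told apart.

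The pituitary links the brain to the reproductive organs. Gonadotropin-releasing hormone from the hypothalamus reaches the anterior lobe, where gonadotrope cells answer with luteinizing and follicle-stimulating hormone, and lactotrope cells secrete the prolactin that milk production needs. Other anterior cells make growth hormone, thyrotropin and corticotropin, and the posterior lobe releases oxytocin and vasopressin from nerve endings. The deposited tables do not pair gene models with symbols, and none of the identifiers matched the RefSeq gene table used here. The hormone, receptor and cell type lists could therefore not be measured, the tissue could not be checked against its markers, and the models are described by number, chromosome, length and reads.

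Total counts ran from 29985514 to 38036840 per library. The 30-month replicate 2 stood apart from the others: its median correlation with the other 5 libraries was 0.924 in log2 CPM across models, against 0.964 to 0.968 for the rest. Its log2 deviation from the median library had a standard deviation (SD) of 0.81, against 0.41 to 0.46. The 30-month replicate 3 was highest in the log2 ratio of reads at 3′ UTR to coding variant sites within a model. Centred on the mean of the libraries, the median ratio was 0.205 there and -0.125 to 0.00503 in the others. None of 9 library measures separated the ages. They were this ratio, total counts, models with counts, share of the 100 most abundant models, and the kinds, number and heterozygosity of variant sites. In two-sided exact permutation tests their p-values ran from 0.2 to 1, where 3 against 3 libraries cannot go below 0.1, and all were 1 after adjustment over the 9 measures.

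A quasi-likelihood test in edgeR on these 6 libraries called 4 gene models at an adjusted p under 0.05, which is 0.0223% of the 17951 tested. Of these, 3 rose from 6 to 30 months and 1 fell. At an unadjusted p under 0.05 there were 1141 models, 6.36% of those tested, where 897.6 would be expected if no model differed. The biological coefficient of variation in this fit was 41.99%. Each of the 4 lost its call when any of the 6 libraries was left out, as the values below show.

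The model with the smallest p was gene5026, 1523 bases long and placed on chromosome 4. Its CPM was 0.106, 0 and 0.0317 in the 6-month libraries and 38.1, 40.6 and 46.6 in the 30-month libraries. These come from 4, 0 and 1 counts against 1464, 1301 and 1452. The calves thus had almost no counted reads and all 3 cows had a similar, moderate level. The log2 fold change was 9.62 with a standard error (SE) of 0.59, and its edgeR adjusted p was 0.0330. Without 1 library at a time the adjusted p lay between 0.0515 and 0.263. Over all 19 alternatives it ran from 8.88e-42 with DESeq2 to 1 when all 18 libraries were fitted together.

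The second model that rose was gene13269, 12424 bases long and placed on chromosome 10. It stood at 31.5, 30.8 and 34.6 CPM in the calves and at 90.2, 104 and 99.1 CPM in the cows. Both ages were tight and well apart, and the mean went from 32.3 ± 2.02 to 97.9 ± 7.19 CPM (SD, n = 3). Its log2 fold change was 1.601 with an SE of 0.12, at an edgeR adjusted p of 0.0340. Leaving out 1 library at a time gave 0.0679 to 0.346. In the deposited FPKM, which also divide by model length, the log2 ratio of the age means was smaller, at 0.96, with no overlap between the ages. Division by the same length at both ages leaves such a ratio unchanged. Why FPKM and CPM differed here was not tested.

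The third was a model of 749 bases on chromosome 8, with 2, 0 and 0 counts at 6 months and 1127, 1692 and 673 counts at 30 months. That is 0.0531, 0 and 0 CPM against 29.4, 52.9 and 21.6 CPM. All 3 cows expressed it, over a range wider than that of gene5026, and the calves were at or near 0. Its log2 fold change was 10.52 with an SE of 0.81, at an edgeR adjusted p of 0.0340, and 0.0679 to 0.390 without 1 library.

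The single model that fell was gene9064, 12090 bases long and placed on chromosome 7. Its CPM was 109.5, 113 and 124 at 6 months and 31.3, 35.1 and 39.3 at 30 months. The cows stood well below the calves with little spread at either age. It fell by 1.71 on the log2 scale with an SE of 0.13, at an edgeR adjusted p of 0.0340, and 0.0832 to 0.346 without 1 library. The model next in p among those lower was Bos_taurus_newGene_69390, a new model of 4723 bases with no variant site to place it. It had 1242, 583 and 1053 counts at 6 months and 0 in each 30-month library, at least 967-fold lower against a floor of 3 counts over the 30-month group. Its edgeR adjusted p was 0.0528, so it was not called.

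Over the 19 alternatives, the adjusted p was under 0.05 in 11 for gene5026, in 7 each for gene13269 and gene9064, and in 9 for the 749-base model on chromosome 8, and reached 1 in at least 1 alternative for each.

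Beyond these, the 10 members of smallest p in each direction with a mean of at least 1 CPM in their higher age were described. Of the higher ones, 2 more stood very low in the calves. A new model of 2562 bases had 1, 1 and 2 counts at 6 months and 66, 41 and 30 at 30 months. A new model of 6217 bases on chromosome 14 went from 0.425, 0.464 and 0.190 CPM to 3.49, 4.34 and 4.17 CPM. The other higher models were expressed at both ages. A model of 17560 bases on chromosome 3, for one, went from 12.4, 10.4 and 11.5 to 25.5, 36.2 and 35.3 CPM.

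Of the 10 lower models, 2 had no counts in any cow: Bos_taurus_newGene_69390 and a new model of 7673 bases with 73, 101 and 117 counts in the calves. The others kept reads at 30 months, with log2 fold changes from -0.76 to -2.57. A model of 6593 bases on chromosome 7 had 172, 137 and 135 CPM at 6 months and 74.8, 80.8 and 60.8 at 30 months. A model of 14745 bases on chromosome 24 had 80.7, 85.9 and 93.7 CPM at 6 months and 38.1, 42.5 and 50.99 at 30 months. A model of 9545 bases, also on chromosome 7, stood lower, at 15.6, 13.1 and 12.9 CPM against 3.67, 1.37 and 1.99. None of the 16 named models beyond the 4 called passed the edgeR test after adjustment.

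**Figure D1:**
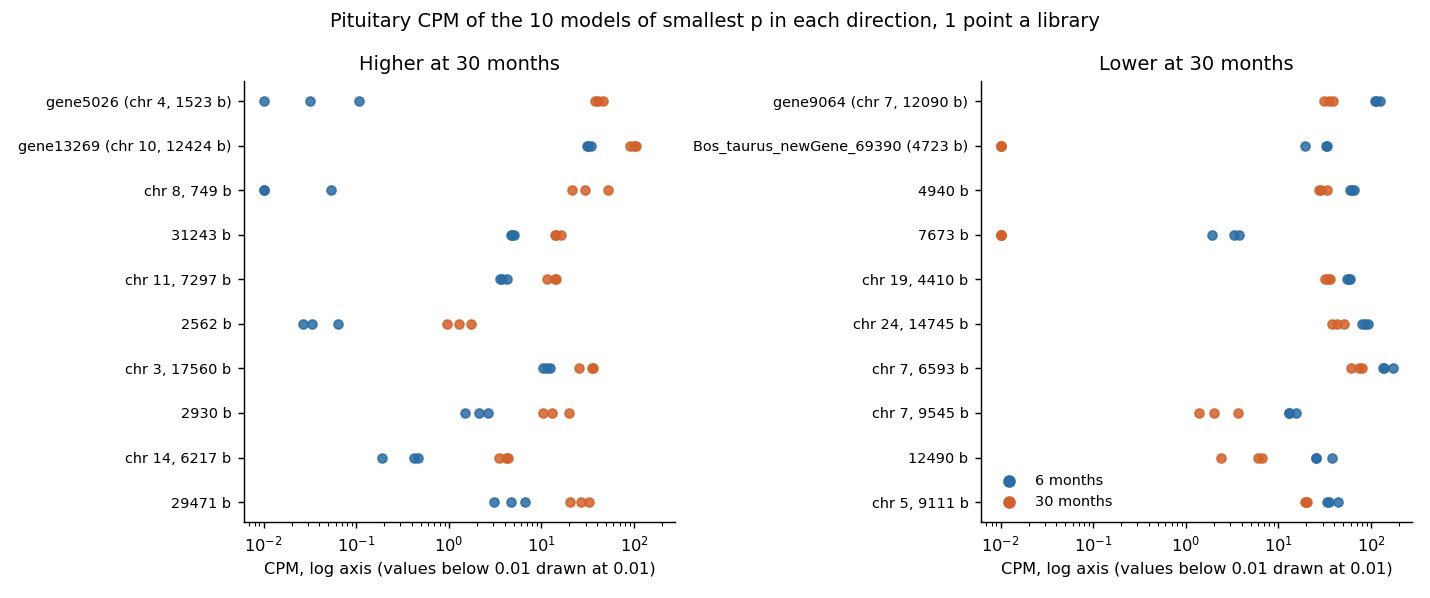
CPM on a log axis for the 10 non-overlapping models of smallest p in each direction, with 1 point for each pituitary library, blue at 6 and orange at 30 months. The points of gene5026, of the 749-base model on chromosome 8 and of Bos_taurus_newGene_69390 lie at or near the left edge in one age, while gene13269 and gene9064 are well expressed at both ages.

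The median log2 ratio of the age means was 0.67 over the higher members and -0.41 over the lower ones. A change of at least 2-fold was seen in 381 higher members, 28.4% of them, and in 186 lower members, 13.9%, beside 8.64% of all models tested. These values chose the members in part, so they describe them and support nothing. The 30-month replicate 2 was the most extreme cow for 68.5% of the higher and 60.5% of the lower members. Over the same members without it, the medians were 0.44 and -0.32, and 213 and 153 were 2-fold apart.

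Many members sat close to the limit set by the rule. The gap, from the highest library of the lower age to the lowest library of the higher age, had a median of 1.09 times in the higher and 1.07 times in the lower members. It was within 5% in 471 higher and 560 lower members, while 724 and 873 models lay within 5% on the other side of the limit. A gap of at least 2 times was found in 42 higher and 23 lower members.

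Over all 6 libraries, members that were higher at 30 months had shorter gene models and lower counts than those that were lower. The median model length was 4380 bases in the higher and 5989 bases in the lower members, beside 4917 bases in all models tested. Their median mean expression was 16.3 and 37.5 CPM, beside 20.2 CPM for all. With the models ranked by length and split into 5 equal classes, the share of models that were higher went from 8.69% in the shortest to 5.15% in the longest, with its highest value of 8.94% in the middle class, and the share that were lower from 5.38% to 9.30%. By classes of mean CPM, the lower share went from 4.85% in the least to 12.2% in the most abundant models, while the higher share was largest, at 9.81%, in the second of the 5 classes.

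When the members were chosen again without the 30-month replicate 2, the length difference was smaller. There were then 2293 higher and 2165 lower members, 12.8% and 12.1% of those tested, with median lengths of 5016 and 5483 bases. They include all 1344 higher and 1338 lower members chosen with 6 libraries. The higher share was 13.1% in the shortest and 11.7% in the longest class, and the lower share 9.89% and 13.4%. The lower share still went from 9.77% in the least to 15.9% in the most abundant class. How far this library, or the RNA it was made from, accounts for the lengths was not tested.

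**Figure D2:**
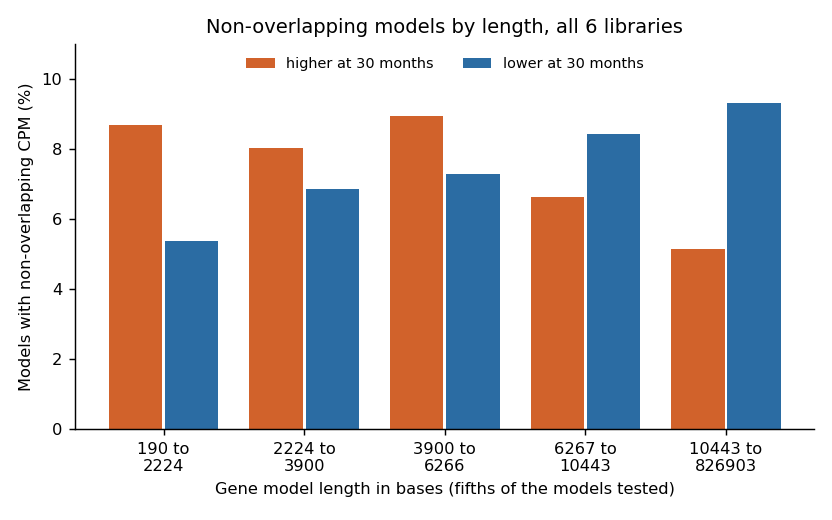
Share of gene models with non-overlapping CPM, in percent, in 5 equal classes of model length in bases, over all 6 libraries, with orange bars for higher and blue bars for lower at 30 months. The orange bars are highest in the middle class, at 8.94%, and lowest in the longest, at 5.15%, and the blue bars rise from 5.38% to 9.30%.

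New models named by the authors were 13.4% of the models tested, 9.60% of the higher and 12.3% of the lower members. Of the new models tested, 5.36% were higher and 6.82% lower, against 7.82% and 7.55% of the numbered models. Without the 30-month replicate 2 the order of higher and lower among new models turned, with 12.2% of the new models higher and 10.8% lower, against 12.9% and 12.3% of the numbered ones.

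A chromosome was known for 14109 of the tested models (78.6%), and for 1097 higher and 1068 lower members. It was taken from variant sites annotated to the model, inside it or upstream or downstream of it. On the placed chromosomes, the higher share ran from 4.21% on chromosome 21 (15 of 356 models) to 11.03% on chromosome 6 (43 of 390). The lower share ran from 4.67% on chromosome 28 (10 of 214) to 11.6% on chromosome 24 (23 of 199), and was 9.45% on the X chromosome. Members were thus found on every chromosome, and the highest share was under 3 times the lowest in each direction. Without the 30-month replicate 2, chromosome 21 was still lowest among the higher shares, at 7.87%. Chromosome 24 was still highest among the lower, at 18.6%, while chromosome 6, at 13.3%, no longer led. These larger lists hold every member chosen before, so the kept ranks are no separate finding.

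Single-base variants (SNPs) gave a second view of the same libraries, since the deposited site table records how many reads covered each variant base. Reads were summed over the sites annotated inside each model and scaled to reads per 1000000 site reads of the library (RPM). Site reads come from the same cows and the same sequencing as the counts, so they are no independent support. They tell whether reads at the variant bases annotated inside a model, introns included, follow the deposited counts. Whether such reads belong to the model or to one that overlaps it was not tested. Each library's counts matched its own site reads best: across 11717 models, its deviations from the other libraries correlated at 0.342 to 0.771 with its own coding and UTR site reads, and at no more than 0.127 with those of another library.

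At least 20 site reads were found for 2049 of the 2682 members. In 1730 of these, 84.4%, site reads moved the same way as the counts. The 95% Wilson interval, 82.8% to 85.9%, takes the models as independent and leaves out the spread between animals. Of the higher members, 898 of 1026 (87.5%) had more site reads at 30 months, beside 55.1% of all 13081 models with site reads. Of the lower members, 832 of 1023 (81.3%) had fewer, beside 44.9% of all models. With members chosen again without the 30-month replicate 2, site reads moved the same way in 2517 of 3269 (77.0%).

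Fewer members kept the ages apart in site reads. Non-overlap in the same direction was found in 327 higher members (31.9%), beside 7.7% of all models with site reads, and in 276 lower members (26.98%), beside 6.31%. Non-overlap in the opposite direction was found in 6 higher (0.585%) and 21 lower members (2.05%), beside 6.31% and 7.7% of all models. Changes were also smaller: median log2 ratios in these members were 0.60 in CPM and 0.47 in site reads for the higher, and -0.36 and -0.23 for the lower. Coding and UTR sites, pooled, moved the same way in 88.7% of the higher members, beside 55.97% of all models with such sites. In the lower members it was 81.5% beside 44.03%. Intron sites did so in 76.4% of the higher members, beside 51.02%, and in 70.7% of the lower, beside 48.98%. Sites in the 3′ UTR alone did so in 85.8% of the higher members, beside 60.25% of all models with such sites. In the lower members it was 68.9% (436 of 633), beside 39.75%.

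Non-overlap in the same direction was also counted for each kind of site. At coding and UTR sites it was found in 34.2% of the higher members, beside 8.18% of all models with such sites, and in 27.7% of the lower members, beside 6.22%. At coding sites alone it was 31.5% beside 6.99% for the higher and 30.5% beside 7.14% for the lower members. At 3′ UTR sites it was 27.1% beside 8.78% and 17.9% beside 4.29%. At intron sites it was lowest, 15.8% beside 5.57% for the higher and 10.9% beside 5.37% for the lower members, and these sites also held fewer reads, with medians of 6.81 and 8.59 RPM per member against 14.4 and 26.5 RPM at coding and UTR sites.

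**Figure D3:**
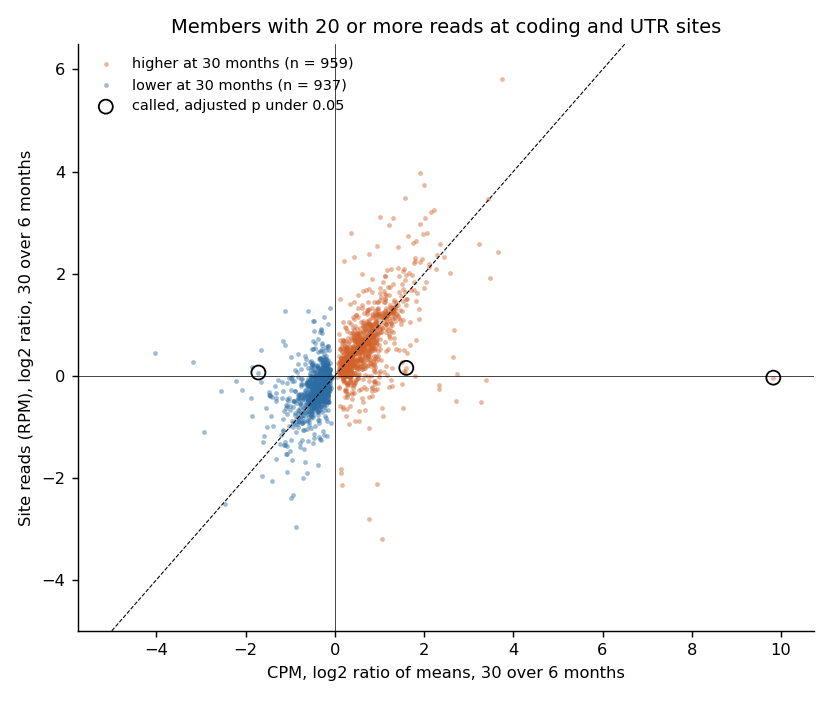
Log2 ratio of the age means (30 over 6 months) in CPM, horizontal, against that in reads at coding and UTR sites, vertical, with 1 point for each of 959 higher and 937 lower members. Most points lie along the dashed line of equal change, while the circled gene5026, gene13269 and gene9064 lie near 0 on the vertical axis, and 10 members with a mean of 0 at an age are not drawn.

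How often site reads followed the counts varied with the size of the change, with no steady trend. Among members under 0.5 apart on the log2 scale, site reads moved the same way in 346 of 426 higher (81.2%) and 557 of 702 lower ones (79.3%). From 0.5 to 1 it was 342 of 372 (91.9%) and 217 of 247 (87.9%). Among higher members between 2-fold and 4-fold apart, site reads moved the same way in 181 of 191 (94.8%), with medians of 1.27 in CPM and 1.18 in site reads on the log2 scale. Between 4-fold and 16-fold it was 26 of 32 (81.3%), and from 16-fold on 3 of 5. Of these 5, all but gene5026 had 0 CPM in every calf. For those the log2 ratio in counts has no finite value, so it cannot be set against that in site reads. Among lower members, 52 of 64 between 2-fold and 4-fold (81.3%) moved the same way, and the median was -1.22 in CPM and -0.52 in site reads. Of the 9 lower members between 4-fold and 16-fold, 6 moved the same way, and the single one beyond 16-fold did not.

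The 3 called models that had site reads did not follow their counts. In gene5026, 5 coding sites between positions 94003181 and 94003649 of chromosome 4 were read 693, 528 and 617 times at 6 months and 572, 499 and 570 times at 30 months. That is 93.2 ± 5.07 against 90.7 ± 6.44 RPM (SD, n = 3), a log2 ratio of -0.04 where counts gave 9.83. The calves thus had about as many reads on these coding bases as the cows, in libraries where the model was counted 0 to 4 times. At each site the same allele prevailed at both ages. For G94003181A (reference base, chromosome position, alternative base), which changes an amino acid, the alternative made up 98.8% of 487 reads at 6 months and 99.5% of 422 at 30 months. For the synonymous G94003303A it was 99.03% of 718 and 99.7% of 693 reads.

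Site reads also stayed level in gene13269, which has 95 sites between positions 88466445 and 88527457 of chromosome 10, of them 4 coding, 12 in the 3′ UTR and 79 in introns. They came to 154, 179 and 159 RPM at 6 months and 195, 156.6 and 151 RPM at 30 months. The ages overlapped, at 164 ± 13.3 and 168 ± 23.6 RPM (SD, n = 3), where the CPM had not overlapped. Coding sites alone gave a log2 ratio of -0.18, 3′ UTR sites 0.27 and intron sites -0.33, each with overlap.

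In gene9064, 5 sites in the 3′ UTR and 39 in introns, between positions 24484071 and 24508643 of chromosome 7, gave 40.6, 32.99 and 33.9 RPM at 6 months and 36.7, 38.7 and 38.9 at 30 months. The means were 35.8 ± 4.15 and 38.1 ± 1.23 RPM (SD, n = 3), and the ages overlapped. The 749-base model on chromosome 8 had no site inside it, so no such reading was possible. Why counts and site reads differed in these 3 models was not tested.

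Of the 20 named models, 11 had enough site reads. These moved the same way as the counts in 6, reached at least 0.5 of the log2 change in 2, and kept the ages apart in 1. That 1 was a model of 7297 bases on chromosome 11, with sites between positions 44706344 and 44717366. Its counts gave 3.74, 3.54 and 4.25 CPM at 6 months and 14.5, 14.02 and 11.6 CPM at 30 months. Its 37 sites were read 74, 57 and 69 times at 6 months and 394, 147 and 294 times at 30 months, or 10.2 ± 0.78 against 45.3 ± 17.4 RPM (SD, n = 3). Site reads were higher in each cow than in any calf, and coding sites (log2 ratio 2.06), 3′ UTR sites (2.45) and intron sites (1.85) each kept the ages apart. The counts gave a log2 fold change of 1.80 with an SE of 0.22, at an edgeR adjusted p of 0.303, so this model was not called.

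**Figure D4:**
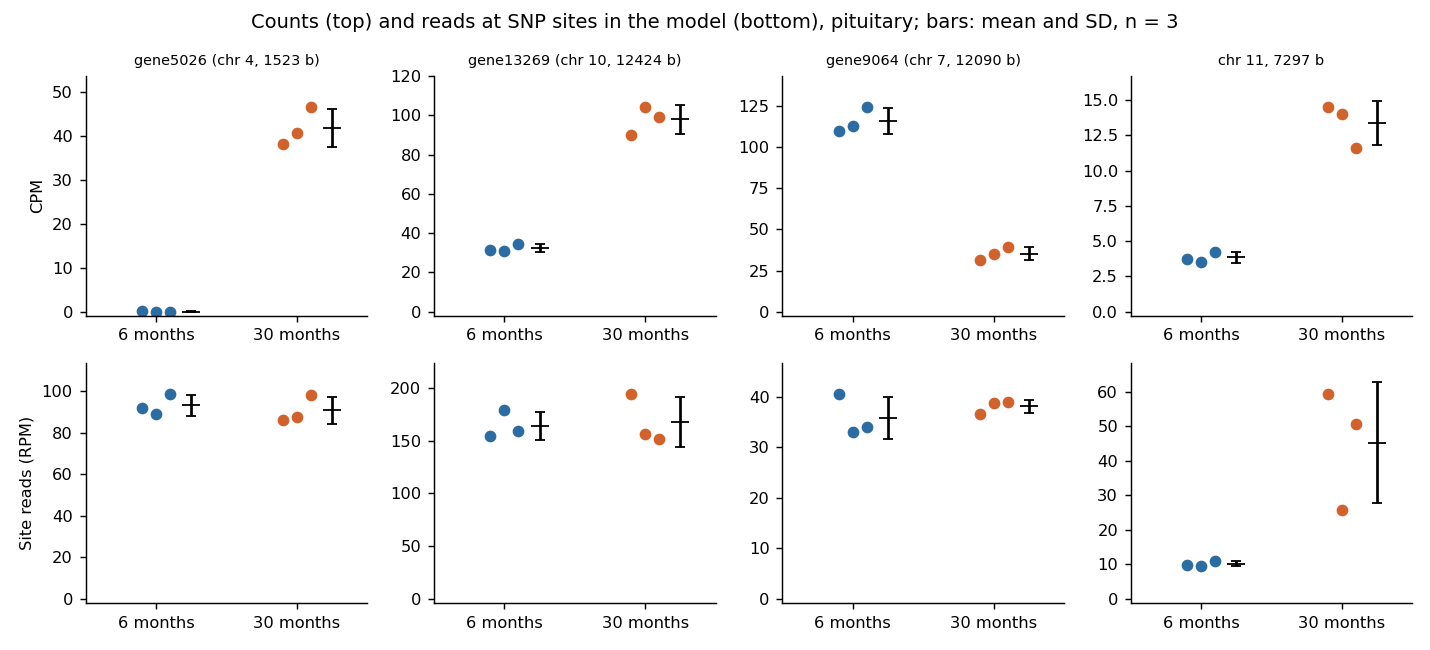
CPM (top row) and reads at SNP sites in the model in RPM (bottom row) for gene5026, gene13269, gene9064 and the 7297-base model on chromosome 11, with 1 point for each library and the mean and SD (n = 3) beside them. The 3 called models differ between the ages in CPM alone, while the model on chromosome 11 is higher at 30 months in both rows, at 45.3 against 10.2 RPM in the bottom row.

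Models that went from almost no counts to clear expression, or the reverse, were few. There were 6 with at most 3 counts in each 6-month library and at least 30 in each 30-month library, and 2 with the reverse pattern. One of the 6, a model of 13153 bases on chromosome 3, had 0 counts in each calf and 133, 333 and 114 in the cows. Its 38 sites, however, were read 812, 598 and 611 times in the calves and 732, 437 and 516 times in the cows. Only a small part of these reads lay at coding and UTR sites. Those sites gave 15.3, 11.6 and 7.36 RPM in the calves and 9.96, 8.26 and 6.20 RPM in the cows. Another, of 3689 bases on chromosome 12, had 0 counts in each calf and 85, 36 and 69 in the cows, and its sites were read 2, 2 and 0 times against 13, 2 and 6 times. These 2 were picked after their values were seen. Across the 6 libraries, 450 models had at most 3 counts in one library and at least 100 in another, 265 of them new models. Of these, 293 passed the expression filter and 23 (7.85%) were non-overlapping by age, beside 14.9% of all models tested. Such switches occurred in every library, with 145 to 229 of these models low in each.

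The same cows gave hypothalamus libraries. Genotypes at sites read at least 20 times in both libraries were 99.3% to 99.7% identical between the pituitary library and its best hypothalamus match, and at most 66.7% identical with the next. Of 1324 higher members tested in both tissues, 96 were also non-overlapping and higher at 30 months in the hypothalamus, 7.25% beside 3.83% of all models. Non-overlapping the opposite way were 21, 1.59% beside 3.42%. Of 1309 lower members, 88 were also lower there, 6.72% beside 3.42%, and 19 went the opposite way, 1.45% beside 3.83%. Those shared models made up 14.4% of the 669 higher and 14.7% of the 598 lower models of the hypothalamus. Site reads in the pituitary moved with the counts in 59 of 68 shared higher (86.8%) and 54 of 65 shared lower models (83.1%) that had them. Over all members with site reads, shared or not, it was 87.5% and 81.3%. Without the cow of 30-month replicate 2 in either tissue, 654 of 2244 higher and 635 of 2123 lower members were shared, 29.1% and 29.9%, beside 18.95% and 17.3% of all models. Both tissues came from the same animals, so the hypothalamus is no independent set of cows.

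The 749-base model on chromosome 8 was near 0, or clearly counted, in the same animals in both tissues. In the hypothalamus it had 0.0590, 0.0308 and 0.0361 CPM at 6 months and 39.04, 105 and 20.1 CPM at 30 months. At 18 months it stood at 21.4, 0 and 49.95 CPM in the pituitary and at 26.8, 0.116 and 17.7 CPM in the hypothalamus of the same 3 animals, in that order. All 3 calves and 1 of the 3 animals of 18 months were near 0 in both tissues, and the other 5 animals had counts in both. The 18-month values stand beside the same 6-month and 30-month libraries and are no separate comparison.

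For gene13269, the hypothalamus went the same way as the pituitary, from 20.7, 29.6 and 16.5 to 71.3, 60.7 and 110.2 CPM, without overlap. At 18 months the animals differed, at 80.2, 19.8 and 111 CPM in the pituitary and 88.0, 14.7 and 30.7 in the hypothalamus. For gene5026, in contrast, the hypothalamus was mixed within an age, at 21.8, 0 and 1.51 CPM at 6 months and 0, 27.1 and 0.0655 at 30 months, while the pituitary had 42.1, 40.7 and 23.2 CPM at 18 months. Counts of gene5026 thus differed between the tissues of a single cow: the 30-month replicate 1 had 38.1 CPM in the pituitary and 0 in the hypothalamus. The new model Bos_taurus_newGene_69390 was at 0 in all 3 pituitaries of 18 months, and in the hypothalamus it had 58.3 CPM in the 6-month replicate 1 and 0 in the other 8 libraries.

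**Figure D5:**
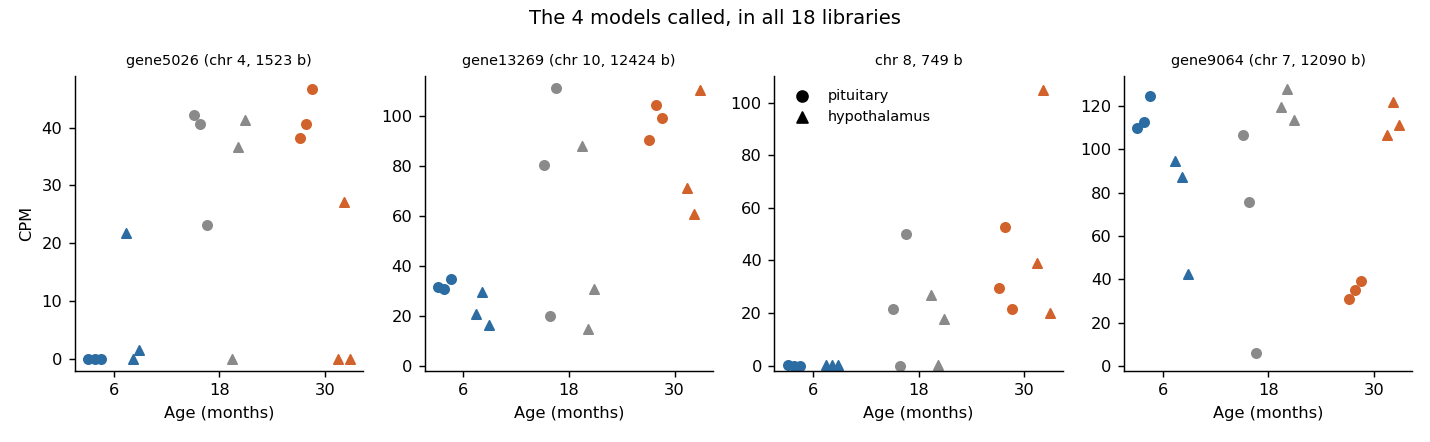
CPM of the 4 called models in all 18 libraries by age in months, with circles for the pituitary and triangles for the hypothalamus. In the 749-base model on chromosome 8, circles and triangles are near 0 in all calves and above 20 CPM in all cows of 30 months, while gene9064 at 30 months stands at 31.3 to 39.3 CPM in the pituitary and at 106 to 122 CPM in the hypothalamus.

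In the deposited FPKM, 1029 higher (76.6%) and 972 lower members (72.6%) were also non-overlapping in the same direction, where 7.69% and 7.08% of all tested models were. The log2 ratio differed between FPKM and CPM by 0.5 or more in 42 higher (3.14%) and 44 lower members (3.30%). That is near the 3.04% of all tested models, so it does not set the members apart. For the 9545-base model on chromosome 7 it was -1.35 in FPKM and -2.56 in CPM, and for the 6217-base new model on chromosome 14 it was 1.599 and 3.48.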

How the data were processed

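The authors deposited read counts per gene model as whole numbers, with no normalization, a table of FPKM for the same models, and a table of 992284 SNP sites whose read depths and allele reads are counts, per the file headers. GATK, HISAT2, DESeq and StringTie are listed, without roles, per the submitters' processing notes. The versions, genome build, annotation, strand setting and handling of reads shared by overlapping or near-identical models are not given in the sources used here. Chromosomes carry the names NCBI gives to the UMD assembly, and positions are as the site table gives them. Deposited FPKM served for comparison and alternatives.

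Counts of the 6 libraries were filtered by group, scaled with TMM factors and fitted in edgeR 4.0.16 (R 4.3.3), whose quasi-likelihood F test was used with Benjamini-Hochberg adjustment over all 17951 models, after a test on simulated data. SEs were taken from the F statistic. Site reads were summed over sites inside a model, without upstream, downstream and intergenic ones, with at least 20 reads over the 6 libraries. Alternatives were other scaling factors and filters, DESeq2 1.42.0, limma 3.58.1 on counts and FPKM, more libraries, and each library left out.

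The members and lists were chosen with earlier results of these data known. Named models were those past an adjusted p of 0.05, gene5026, and the 10 per direction of smallest p among members with a mean of at least 1 CPM in the higher age; identifiers are printed for 2 per direction. The counts from nearly none to clear expression, the FPKM comparison, the shared members with the hypothalamus, and the choice of members without the 30-month replicate 2 by length, level, chromosome and tissue were added after seeing the data. The sample titles give breed, tissue and age but no animal number. By genotype, each pituitary library matched a different hypothalamus library of its own age.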

Additional observations from a re-analysis of the deposited data

Results flagged for a closer look

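The model gene9064 went opposite ways in the 2 tissues. In the pituitary all 3 cows were lower than all 3 calves, with a log2 fold change of -1.71. In the hypothalamus of the same animals it stood at 94.5, 87.1 and 42.7 CPM at 6 months and at 106, 122 and 111 CPM at 30 months, a log2 ratio of the age means of 0.60 (0.596), with all 3 cows above all 3 calves. The difference between the tissues was not tested. At 18 months the pituitary had 107, 75.8 and 6.03 CPM and the hypothalamus 119, 128 and 113 CPM.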

How the results depend on the processing

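The number of models called was 4 to 5 with the other scaling factors and filters and with limma-voom with quality weights, and 3 with limma on FPKM. It was 130 with DESeq2 (70 higher and 60 lower), 0 with limma-voom (1044 at an unadjusted p under 0.05), 1 with all 9 pituitary libraries in the fit, 0 with all 18 libraries, and 0 to 1 without 1 library. The single model called without the 6-month replicate 3 was none of the 4. At an unadjusted p under 0.05 there were 1782 with DESeq2, 353 with 9 libraries, 567 with 18 libraries, and 593 to 1770 without 1 library. Each named model kept its direction under every alternative that gave it a value. Their choice as non-overlapping models largely fixed this in advance, so it supports nothing.

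Non-overlapping members of at least 2-fold change were 381 higher and 186 lower, and without 1 library there were 1929 to 2682 higher and 1878 to 2568 lower members, as fewer libraries must be kept apart. The median length of higher members was 3807 bases with no filter, 4824 with a filter of 1 CPM in 3 libraries, 3249 at 2-fold or more, and 4102 to 5016 without 1 library. For lower members it was 5191, 6360, 3526, and 5483 to 6360 bases. The share of members whose site reads moved the same way was 86.0% at coding sites, 77.3% at 3′ UTR sites, 88.7% at 2-fold or more, and 77.0% to 83.4% without 1 library. Members shared with the hypothalamus were 96 and 88, 7.25% and 6.72%, beside 3.83% and 3.42% of all models. Without the cow of 30-month replicate 2 they were 654 and 635, 29.1% and 29.9%, beside 18.95% and 17.3%. Fewer libraries then had to be kept apart.

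Differences of the library measures (30 minus 6 months) turned sign in 6 of the 9 measures, none of which had separated the ages. The percent of site reads at coding sites, -0.0010 points, was 0.086 points at sites with a depth of at least 10, and -0.854 to 0.56 without 1 library. Without 1 library the total count ranged from -1811419 to 2663168, models with counts from -284.2 to 5.33, the percent of counts in the 100 most abundant models from -0.172 to 0.93, the percent of site reads in introns from -1.06 to 0.412, and the percent heterozygous from -2.27 to 1.02.

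No paired analysis was possible because the animals of each age were different cows and the labels give no number shared between ages. With 3 libraries per age and a biological coefficient of variation of 41.99%, a model not called is not shown to be alike at both ages.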
